A study of Arabidopsis thaliana with 23 samples.

Results

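A set of 81 windows of 100 bp was picked out of the Arabidopsis genome because their 24-nt small interfering RNAs (siRNAs) were lost in the *zmp-2* mutant and did not come back when a tagged copy of *ZMP* was put into that mutant. The files list 726877 windows of the 5 nuclear chromosomes, and in 15497 of them WT averaged at least 4 RPM (reads per M mapped reads, with M for mega) of 24 nt in both sequencing batches. Of these, 1587 windows averaged at most 0.25 of the WT level in *zmp-2* in both batches, and 81 of the 1587 also averaged at most 0.25 of WT in the line carrying *ZMP-YFP*. The members were thus chosen by the 24-nt levels of WT, *zmp-2* and *ZMP-YFP zmp-2*. Their values in these groups are a description without a test, and only the double mutants and *nrpd1-3* were outside the choice. The median WT level of the members was 11.4 RPM in batch A and 10.9 RPM in batch B, close to the 11.1 and 9.99 RPM of all 15497 windows. The other windows lost in *zmp-2* had higher medians, at 17.9 and 13.6 RPM.

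Small RNAs were sequenced from inflorescences of Col-0 plants in 23 libraries of 6 genotypes, which the labels divide into batches A and B. Batch A held WT, *zmp-2* and *ZMP-YFP zmp-2* with 3 libraries each, and *nrpd1-3* with 2. Batch B held WT, *zmp-2*, *zmp-2 shh1-1* and *zmp-2 nrpd1-3* with 3 each. The mutations are T-DNA insertions, every double mutant carries *zmp-2*, and batch B has neither a single *shh1-1* mutant nor the transgenic line. *ZMP-YFP* is driven by the *ZMP* promoter in plants that still carry *zmp-2*. The study calls the replicates biological. Values given in a row below follow the order of the replicate numbers.

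In plants, RNA polymerase IV (Pol IV) transcribes transposons and other repeats, its transcripts are made double-stranded and are cut into 24-nt siRNAs, and these guide DNA methylation in the pathway called RNA-directed DNA methylation (RdDM). NRPD1 is the largest subunit of Pol IV. SHH1 reads methylated histone H3 and brings Pol IV to part of its sites, and ZMP (AT5G63700) is a protein that the study found bound to Pol IV on chromatin. The siRNAs and the chromatin marks they bring can feed back on each other, because Pol IV is itself drawn to marked chromatin.

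The sequences of 6 of the clusters named below are shown because they hold the strongest WT signals of the set or differ in how much of the signal remained. Each is read from RefSeq TAIR10.1, whose nuclear chromosomes match the coordinates of the files (TAIR10), on the plus strand, and the capitals mark the 100-bp member window with the highest WT level in its cluster.
upstream of AT3G11591, chr3:3664201-3664500: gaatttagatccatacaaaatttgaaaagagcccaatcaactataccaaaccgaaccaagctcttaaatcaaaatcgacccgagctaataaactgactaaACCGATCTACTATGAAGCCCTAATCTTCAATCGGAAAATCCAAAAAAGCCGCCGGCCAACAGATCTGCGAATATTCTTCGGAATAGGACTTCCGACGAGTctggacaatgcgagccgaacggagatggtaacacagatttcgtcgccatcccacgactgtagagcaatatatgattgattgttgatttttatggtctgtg
upstream of *EMB2816*, chr2:1178801-1179100: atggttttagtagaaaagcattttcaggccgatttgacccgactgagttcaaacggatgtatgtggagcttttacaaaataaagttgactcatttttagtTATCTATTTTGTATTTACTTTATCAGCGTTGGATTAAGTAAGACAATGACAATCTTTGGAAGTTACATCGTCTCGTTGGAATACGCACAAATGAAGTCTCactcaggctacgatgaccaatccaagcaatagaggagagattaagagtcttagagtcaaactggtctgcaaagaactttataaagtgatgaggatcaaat
between *PAB4* and AT2G23360, chr2:9947301-9947600: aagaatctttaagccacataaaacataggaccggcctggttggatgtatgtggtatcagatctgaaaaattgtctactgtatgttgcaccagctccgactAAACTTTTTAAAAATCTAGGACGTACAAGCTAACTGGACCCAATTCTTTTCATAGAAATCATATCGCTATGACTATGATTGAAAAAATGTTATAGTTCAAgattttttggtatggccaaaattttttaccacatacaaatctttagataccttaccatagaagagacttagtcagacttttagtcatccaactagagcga
pseudogene AT3G22955, chr3:8138601-8138900: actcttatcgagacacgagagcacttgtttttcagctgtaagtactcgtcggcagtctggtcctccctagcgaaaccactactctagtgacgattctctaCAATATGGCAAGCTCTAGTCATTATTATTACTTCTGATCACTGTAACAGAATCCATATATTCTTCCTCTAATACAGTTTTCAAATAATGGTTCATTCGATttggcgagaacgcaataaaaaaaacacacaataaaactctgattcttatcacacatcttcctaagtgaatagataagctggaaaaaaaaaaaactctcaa
upstream of AT1G30680, chr1:10880801-10881100: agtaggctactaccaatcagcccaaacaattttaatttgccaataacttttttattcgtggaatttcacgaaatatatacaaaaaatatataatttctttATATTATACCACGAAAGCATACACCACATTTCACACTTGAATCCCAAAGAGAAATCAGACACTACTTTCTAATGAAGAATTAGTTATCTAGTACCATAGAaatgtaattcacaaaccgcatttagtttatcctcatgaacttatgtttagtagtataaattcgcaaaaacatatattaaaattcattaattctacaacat
pseudogene AT3G29153, chr3:11120301-11120600: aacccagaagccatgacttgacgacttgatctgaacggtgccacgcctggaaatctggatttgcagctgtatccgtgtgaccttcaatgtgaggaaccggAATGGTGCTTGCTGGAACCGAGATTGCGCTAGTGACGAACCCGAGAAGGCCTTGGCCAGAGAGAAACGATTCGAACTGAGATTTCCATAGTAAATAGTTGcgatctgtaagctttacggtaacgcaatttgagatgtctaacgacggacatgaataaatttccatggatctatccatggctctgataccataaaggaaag
The capital windows held 29% to 48% G and C, within the range of 23% to 49% over all members.

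The 21- to 24-nt reads per library numbered 0.532 to 8.35 M, and 1 read was worth from 0.101 to 0.849 RPM, with the coarsest steps in *zmp-2 nrpd1-3*. Over a whole group, 3 reads come to 0.128 RPM in *zmp-2* of batch A, 0.163 RPM in *ZMP-YFP zmp-2* and 0.796 RPM in *zmp-2 nrpd1-3*, and levels below these are not told apart from 0. These limits cover counting error alone. Replicate 3 of *zmp-2* in batch A stood apart at the members. It was the highest of the 3 *zmp-2* libraries at 55 of 81 windows, against 14 for replicate 1 and 10 for replicate 2. Of 15 windows without a 24-nt read in replicates 1 and 2, 13 had reads in replicate 3. Neither count was made over other windows. Replicate 3 was also the deepest, with 9.895 M mapped reads against 9.137 M in replicate 1 and 4.434 M in replicate 2. At the 1466 lost windows where the *ZMP-YFP* line reached at least 0.5 of WT, the same libraries stood closer together, at 13.6%, 15.2% and 17.3% of the WT mean. Leaving replicate 3 out gave 79 members, all among the 81, and lowered the median *zmp-2* level in batch A from 4.45% to 2.67% of WT. What sets this library apart was not tested.

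The recovery of lost windows in the transgenic line spread unevenly. Among the 1587 windows lost in *zmp-2*, the ratio of *ZMP-YFP zmp-2* to WT was at no more than 0.01 in 49 windows. It was between 0.01 and 0.05 in 12, between 0.05 and 0.1 in 2 and between 0.1 and 0.25 in 18. Above the limit, 3 lay between 0.25 and 0.3, 13 between 0.3 and 0.4 and 24 between 0.4 and 0.5. Another 412 lay between 0.5 and 0.75, 1037 between 0.75 and 1.5 and 17 above 1.5. The counts thus had no gap at the limit of 0.25. Of the 81 members, 61 were at or below 5% of WT in the transgenic line, and 32 had no 24-nt read in any of its 3 libraries. The other 20 lay between 6.13% and 24.6%. At 81 of 81 members every *zmp-2* library was below every WT library in both batches (31.4% of the 15497 windows were), and every *ZMP-YFP zmp-2* library was below every WT library of batch A (16.4% of all windows). The rule fixes both counts, and nothing is read from them. Every *ZMP-YFP zmp-2* library exceeded every *zmp-2* library at 4 of 81 members, at 1489 of the 1506 other lost windows, and at 32.6% of all 15497. The rule parted the members from the other lost windows by the transgenic level, so nothing is read from this contrast either.

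**Figure D1:**
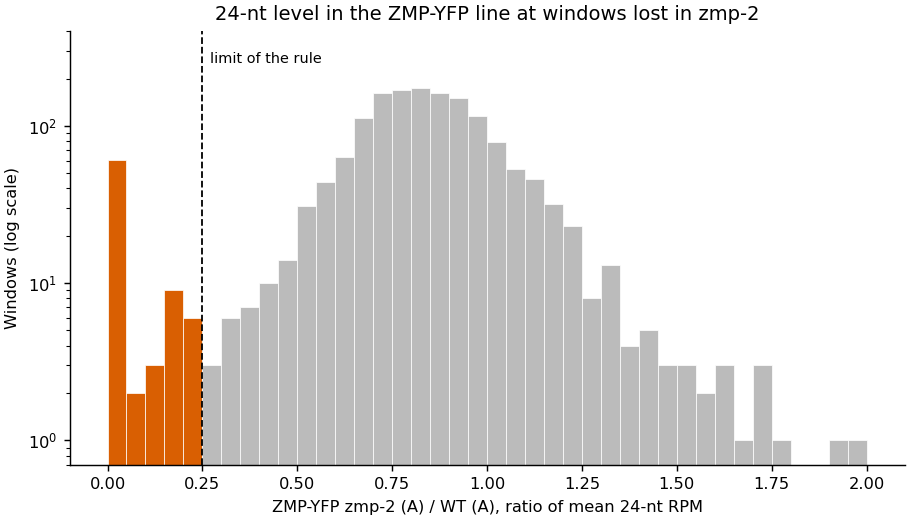
Ratio of the mean 24-nt RPM in *ZMP-YFP zmp-2* to that in WT of batch A (x axis) for the 1587 windows lost in *zmp-2*, in bins of 0.05, with the number of windows on a log axis (y axis). Orange bars are the 81 members at or below the limit of 0.25 (dashed line), and 2 windows above a ratio of 2 are not drawn. The members fall into a spike next to 0 and 20 windows above it. From there the bars run on past the limit into the main hump without a gap.

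The same split went with other levels in the *zmp-2* mutant itself, given here without a test. In the 61 windows at or below 5% in the transgenic line, the median *zmp-2* level was 3.08% of WT in batch A and 0.310% in batch B. In the 20 others it was 14.4% and 10.2%, beside 17.8% in *ZMP-YFP zmp-2*. Over *zmp-2* of batch B, 52 of the 81 members held no more than 3 reads of 24 nt. The median of 0.310% is thus not told apart from 0, and its distance from the batch A median is not read. The 61 windows formed 45 clusters and the 20 windows formed 14, and only 1 cluster held both kinds. Summed over the 61, replicates of *zmp-2* in batch A were at 1.43%, 2.97% and 6.46% of WT, those of *ZMP-YFP zmp-2* at 0.776%, 0.444% and 0.323%, and those of *zmp-2* in batch B at 1.42%, 1.19% and 1.51%. The low transgenic values follow from how the 61 were split off, and nothing is read from them. Summed over the 20, the transgenic libraries were at 13.9%, 22.6% and 19.3%, and overlapped *zmp-2* of the same batch at 12.8%, 15.1% and 17.7%. Without Pol IV the 24-nt reads were nearly absent, as *nrpd1-3* was at or below 0.25 of WT at 81 of 81 windows (98.8% of the 15497) with a highest value of 5.36%, and *zmp-2 nrpd1-3* likewise at 81 of 81 (98.9%) with a highest value of 5.38%. These shares are near the background and are not particular to the members.

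**Figure D2:**
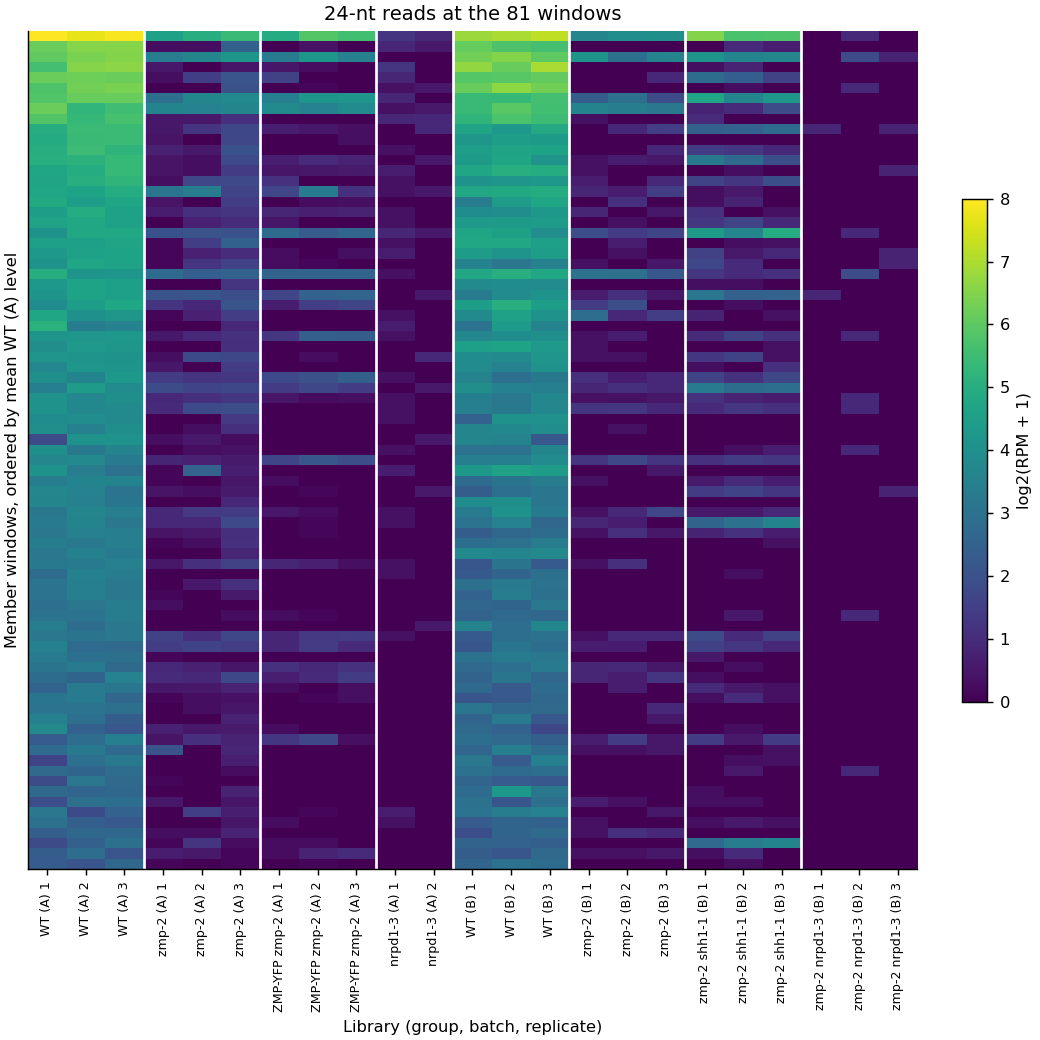
24-nt level as log2(RPM + 1) in color for the 81 member windows (y axis, highest WT level at the top) in 23 libraries (x axis, named by group, batch and replicate, with white lines between groups). Both WT groups are bright at every window, while the mutant and transgenic libraries are dark except at a minority of windows, and replicate 3 of *zmp-2* in batch A is brighter than replicates 1 and 2 in 55 windows.

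The members formed 58 clusters when windows with starts no more than 300 bp apart were joined, with 43 single windows, 8 clusters of 2, 6 of 3 and 1 of 4 windows, and no cluster spanned more than 500 bp. The median distance between neighboring clusters was 1284 kb and the smallest was 7.70 kb. By chromosome, 20 members lay on 1, 25 on 2, 19 on 3, 6 on 4 and 11 on 5. Only 12.3% (10 of 81) were pericentromeric, against 49.5% of the 1506 other lost windows and 31.5% of all windows at the WT minimum. Of the members, 76.5% were intergenic (62 windows), 11.1% overlapped pseudogenes (9), 6.17% coding sequence (5), 4.94% noncoding genes (4) and 1.23% a UTR (1). In 36 windows (44.4%) the nearest gene was a protein-coding gene whose upstream side faced the window, against 26.5% of the other lost windows and 29.0% of all. The sequence was mostly single-copy: 84.0% of the members had no second copy of at least 80% identity and coverage in the genome, against 60.0% of other lost windows and 41.2% of all, and at least 90% of the 24-mers were unique in 87.7%, 79.7% and 53.7%. The windows of a cluster are not independent, and these shares are given without a test.

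Windows around the clusters were of mixed kinds. Within 1000 bp of a cluster there were 153 other windows with at least 1 RPM in both WT groups, beside 39 of the 58 clusters, and the remaining 19 clusters had none. Of the 153, 47 were also at or below 0.25 of WT in *zmp-2* in both batches, and 34 of these 47 were unrestored in the transgenic line as well, so that they missed membership by their WT level alone, while 6 were restored to at least 0.5 of WT. Another 65 kept more than 0.5 of WT in *zmp-2* in both batches. Of the 38 neighbors starting 100 bp from a member, 22 were lost in *zmp-2* in both batches and 7 kept more than 0.5. All 6 restored neighbors lay beside 2 clusters, the one next to the pseudogene AT1G35480 and the one downstream of AT2G04305 described below. Next to the pseudogene AT1G35480 on chromosome 1, the member chr1:13055401-13055500 was at 2.02% of WT in *ZMP-YFP zmp-2*, and 4 windows from 600 to 900 bp away were at 0.747 to 0.943 of WT there and at no more than 0.166 of WT in *zmp-2* of batch A. In the coding sequence of *CYCP2;1*, a P-type cyclin, the member chr3:7704001-7704100 fell from 31.9 RPM in WT to 0.724 in *zmp-2* and 0.438 in *ZMP-YFP zmp-2* of batch A, and chr3:7703801-7703900, 200 bp away in the same gene, had 85.1 RPM for WT, 99.2 for *zmp-2* and 47.6 for *ZMP-YFP zmp-2*. That neighbor was not lost in *zmp-2*, so it is not among the 6 restored ones. It was at 77.1 RPM in WT and 75.2 RPM in *zmp-2* of batch B, and at 0.0933 RPM in *zmp-2 shh1-1*.

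**Figure D3:**
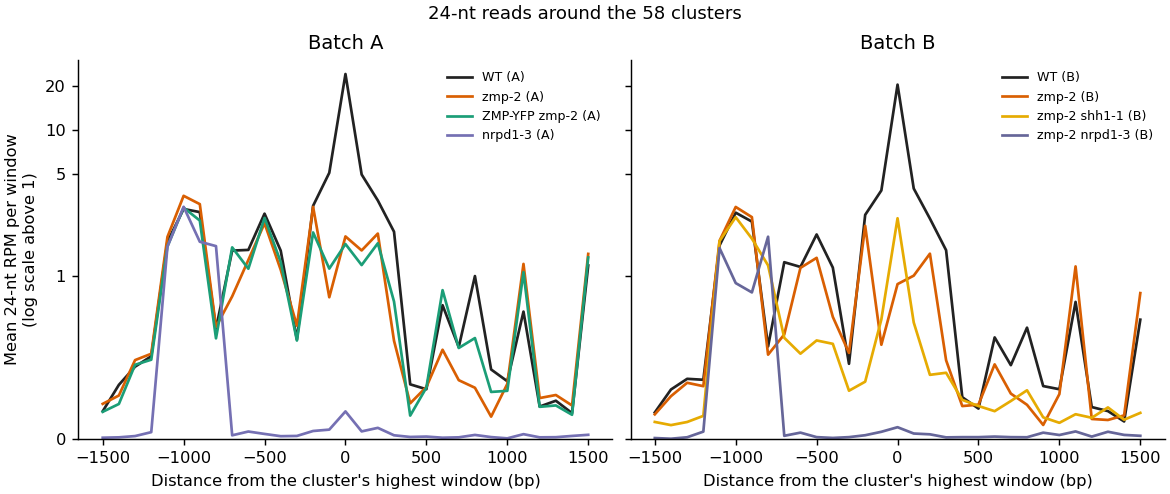
Mean 24-nt RPM per window (y axis, linear up to 1 and log above) against the distance in bp from the highest window of each of the 58 clusters (x axis), for the groups of batch A (left) and batch B (right). WT peaks at 24.1 RPM in batch A and 20.4 RPM in batch B at the center and all other groups stay below 2.5 RPM there. The hump near -1000 bp, which *nrpd1-3* shares, holds 2 windows beside 1 cluster with 108 and 112 RPM in WT of batch A.

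By the number of windows, the largest cluster lay 315 bp upstream of AT3G11591, annotated as a bric-a-brac protein gene (chr3:3664301-3664700, 4 windows). Its summed 24-nt level was 137, 158 and 155 RPM in WT of batch A, 0.547, 6.09 and 8.69 RPM in *zmp-2*, 3.79, 0.107 and 0 RPM in *ZMP-YFP zmp-2*, and 1.36 and 0 RPM in *nrpd1-3*. In batch B it was 105, 105 and 115 RPM in WT, 0.817, 0.283 and 2.17 RPM in *zmp-2*, 12.1, 8.78 and 5.60 RPM in *zmp-2 shh1-1*, and 0, 0 and 0.722 RPM in *zmp-2 nrpd1-3*. WT stood clear of every other library, and the *zmp-2 shh1-1* libraries all stood above *zmp-2* at 8.14% of WT against 1.01% (3.60% against 0.788% when scaled by rRNA reads). The transgenic replicates were not alike, since 19 of their 20 reads came from replicate 1.

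The strongest cluster lay upstream of *EMB2816*, which encodes the Sm-like protein LSM7 of RNA metabolism (chr2:1178801-1179100, 3 windows, the center window 971 bp from the gene). WT of batch A had 323, 300 and 333 RPM, *zmp-2* had 32.7, 45.8 and 57.1 RPM, *ZMP-YFP zmp-2* had 41.7, 77.8 and 68.5 RPM, and *nrpd1-3* had 2.17 and 1.34 RPM. The transgenic and mutant libraries overlapped, and both kept a residue far above *nrpd1-3*. In batch B, WT had 160, 180 and 215 RPM, *zmp-2* had 16.3, 22.1 and 17.8 RPM, *zmp-2 shh1-1* had 124, 67.4 and 76.4 RPM and *zmp-2 nrpd1-3* had 0.830, 0.849 and 0 RPM. Here the double mutant with *shh1-1* stood between *zmp-2* and WT, at 48.2% of WT, without overlap on either side. By reads per M 45S ribosomal RNA (rRNA) reads (RPMR), the scaling the study used, it was at 20.7% of WT and *zmp-2* at 8.57%, again without overlap. The center window alone, chr2:1178901-1179000, averaged 233 RPM in WT of batch A and was the highest of all members.

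Between *PAB4*, a poly(A)-binding protein gene, and AT2G23360 (chr2:9947401-9947700, 3 windows), WT of batch A had 108, 128 and 137 RPM, *zmp-2* had 9.96, 12.0 and 20.8 RPM, *ZMP-YFP zmp-2* had 9.38, 18.7 and 10.97 RPM and *nrpd1-3* had 0 and 0.896 RPM. In batch B, WT had 101.1, 123 and 87.8 RPM, *zmp-2* had 16.9, 7.36 and 11.3 RPM, *zmp-2 shh1-1* had 26.7, 19.0 and 15.7 RPM, and *zmp-2 nrpd1-3* had 0, 2.55 and 1.44 RPM. This was the only cluster with members on both sides of the 5% line. The window chr2:9947401-9947500 kept 15.5% of WT in *ZMP-YFP zmp-2* and 14.8% in *zmp-2* of batch B, and the adjoining chr2:9947501-9947600 kept 2.17% and 2.06%.

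At the pseudogene AT3G22955 (chr3:8138501-8138800, 3 windows) the loss was nearly complete. WT had 81.3, 110 and 114 RPM in batch A and 89.6, 120.0 and 99.8 RPM in batch B. *zmp-2* of batch A had 0.109, 0.226 and 5.46 RPM, which is 1, 1 and 54 reads, so that replicate 3 alone held nearly all of the residue. *zmp-2* of batch B had no read in any library, *ZMP-YFP zmp-2* had 1 read in all, *zmp-2 shh1-1* had 4 and *zmp-2 nrpd1-3* had 1. The single window upstream of AT1G30680, a homolog of the organellar DNA helicase Twinkle (chr1:10880901-10881000), behaved alike, with 71.4, 91.5 and 92.6 RPM in WT of batch A, 0.219, 0.226 and 4.55 RPM in *zmp-2* and 0, 0.321 and 0 RPM in *ZMP-YFP zmp-2*. In batch B it had 67.5, 53.2 and 48.9 RPM in WT, 0 in all 3 *zmp-2* libraries and 0, 0.950 and 0.560 RPM in *zmp-2 shh1-1*.

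The cluster at the pseudogene AT3G29153 (chr3:11120401-11120600, 2 windows) in the pericentromere of chromosome 3 had the reverse order of the mutants in batch B. WT had 103, 54.0 and 63.7 RPM in batch A, *zmp-2* 17.3, 14.9 and 16.6 RPM and *ZMP-YFP zmp-2* 17.97, 15.6 and 18.3 RPM. In batch B, WT had 68.6, 92.3 and 72.7 RPM, *zmp-2* had 18.2, 16.1 and 11.7 RPM and *zmp-2 shh1-1* had 2.13, 1.90 and 3.64 RPM. *zmp-2* and the transgenic line thus overlapped at about the same level, and the double mutant was lower than both, at 3.28% of WT against 19.7% in *zmp-2* (1.24% and 16.7% by RPMR).

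**Figure D4:**
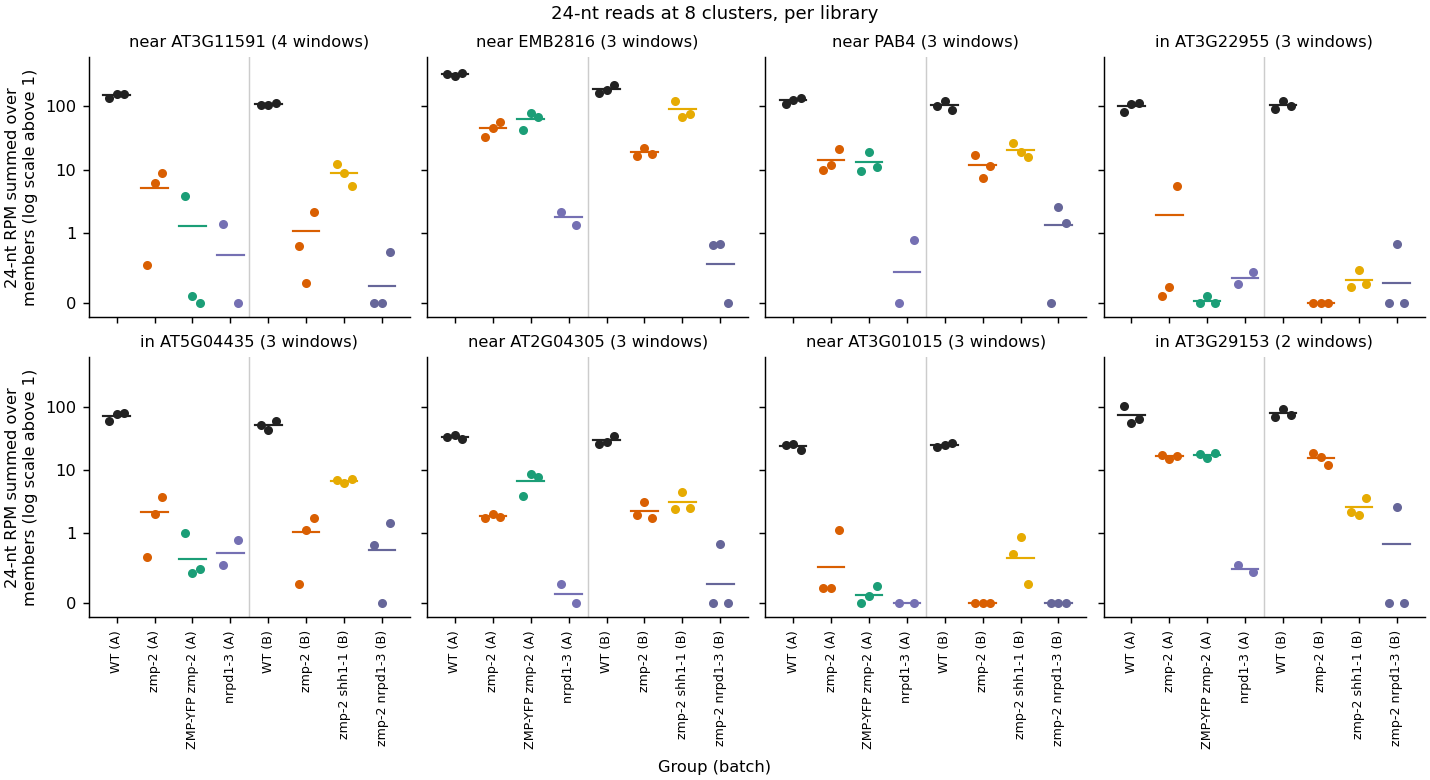
24-nt RPM summed over the member windows of 8 clusters (y axis, linear up to 1 and log above) in the 8 groups (x axis, batch A left of the gray line and batch B right of it). Points are libraries and bars are group means. WT is the highest group in each panel, *ZMP-YFP zmp-2* overlaps *zmp-2* of batch A or lies below it except near AT2G04305, and *zmp-2 shh1-1* lies above *zmp-2* near EMB2816 and below it in AT3G29153.

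The remaining clusters of the 8 with the most windows repeated these patterns at lower levels. At the noncoding RNA gene AT5G04435 (chr5:9818901-9819200), WT averaged 71.1 ± 11.3 RPM in batch A (SD, n = 3), *zmp-2* 2.14 ± 1.54 and *ZMP-YFP zmp-2* 0.638 ± 0.313 RPM, and in batch B WT averaged 50.3 ± 8.13, *zmp-2* 1.05 ± 0.734 and *zmp-2 shh1-1* 6.77 ± 0.558 RPM. The cluster downstream of AT2G04305, annotated as a CorA-like magnesium transporter gene (chr2:1499901-1500400), was the exception among these 8. There *ZMP-YFP zmp-2* rose above *zmp-2* without overlap, with 3.79, 8.45 and 7.80 RPM against 1.75, 2.03 and 1.82, while WT had 33.1, 36.1 and 30.8 RPM. Its windows at 200 and 300 bp from the last member were at 0.632 and 0.549 of WT in the transgenic line. At the very end of chromosome 3 (chr3:201-600, the nearest gene being AT3G01015), WT averaged 23.7 ± 2.69 RPM in batch A and 24.6 ± 1.46 RPM in batch B, *zmp-2* had 0.219, 0.226 and 1.11 RPM in batch A and no read in batch B, and *ZMP-YFP zmp-2* had 2 reads in all. Among the 5 strongest windows was also chr5:2656101-2656200, 231 bp upstream of AT5G08250. It had 78.5 ± 26.98 RPM in WT of batch A and 99.4 ± 28.4 RPM in batch B (SD, n = 3 each), and no more than 0.438 RPM in any library of *zmp-2* or *ZMP-YFP zmp-2*.

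The values of *zmp-2 shh1-1* were not used by the rule, apart from the WT level they are set against, and they depended on the scaling. They are given without a test. The double mutant was at or below 0.25 of WT at 71 of 81 members (87.7%), at 53.4% of the 1506 other lost windows and at 49.6% of all 15497. By RPMR these shares were 95.1% (77 members), 98.5% and 71.7%, so that the members were no longer more often below this limit than the other lost windows. The median level was 2.44% of WT at the members, 24.1% at the other lost windows and 25.5% over all, and by RPMR 0.977%, 10.0% and 10.7%. The double mutant carries *zmp-2*, and in *zmp-2* of batch B, which the rule used, the members were lower as well, at a median of 1.28% against 14.3% at the other lost windows. At 52 members *zmp-2* of batch B held no more than 3 reads, and at 39 *zmp-2 shh1-1* did, so many of these levels are not told apart from 0. Every *zmp-2 shh1-1* library was below every WT library at 78 of 81 members, at 98.1% of the other lost windows and at 73.3% of all windows. Set against *zmp-2* of the same batch, every *zmp-2 shh1-1* library was higher at 21 members (25.9%, against 43.4% of the other lost windows and 20.9% of all) and every one was lower at 7 (8.64%, against 1.59% and 49.5%). By RPMR every *zmp-2 shh1-1* library was higher at 11 members (13.6%, against 1.73% of the other lost windows), so that the order of these sets turned with the scaling. Members near 0 in *zmp-2* could hardly be lower still, so nothing is read from the last share.

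The exceptions by RPM were 10 windows in 6 clusters where *zmp-2 shh1-1* kept more than 25% of WT while *zmp-2* of batch B was at a median of 6.96%. By RPMR 4 members were above 25%. They were picked out after their values were seen. Downstream of AT1G70630, which encodes the sugar transferase RAY1 (chr1:26634901-26635100), WT of batch B had 39.6, 33.1 and 24.1 RPM, *zmp-2* had 3.54, 2.83 and 3.03 RPM and *zmp-2 shh1-1* had 28.4, 17.6 and 36.4 RPM. By RPM the double mutant overlapped WT there and stood above *zmp-2*. By RPMR it did not overlap WT, with 123, 67.5 and 84.8 against 291, 339 and 189, or 33.6% of WT against 85.0% by RPM, and still stood above *zmp-2* at 28.3, 21.3 and 18.2. In batch A the same cluster had 26.0, 47.0 and 40.3 RPM in WT, 5.58, 5.19 and 5.36 RPM in *zmp-2* and 7.59, 6.21 and 6.82 RPM in *ZMP-YFP zmp-2*. The transgenic libraries there were all above those of *zmp-2*. At the pseudogene AT3G04717 (chr3:1284901-1285000), WT of batch B had 7.33, 10.8 and 5.53 RPM, *zmp-2* had 0.817, 0.566 and 0 RPM and *zmp-2 shh1-1* had 4.96, 7.12 and 11.2 RPM, which was 98.5% of WT by RPM and 36.1% by RPMR. At the pseudogene AT2G13990 (chr2:5880001-5880100), WT had 4.89, 4.66 and 4.36 RPM, *zmp-2* had 0 in all 3 libraries and *zmp-2 shh1-1* had 5.67, 9.26 and 11.2 RPM, above every WT library. By RPMR the direction against WT turned, with 24.5, 35.6 and 26.1 in *zmp-2 shh1-1* against 35.8, 47.7 and 34.2 in WT, or 73.2% of WT in place of 188%. This window has 14 further copies of at least 80% identity, and reads could have been given to any of them. The others were the 3 windows upstream of *EMB2816*, the 2 windows nearest AT2G23360 and chr3:23118401-23118500.

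All size classes fell together at the members, as they did in *zmp-2* at the other lost windows. In WT of batch A, members averaged 1.70 ± 0.159 RPM per window of 21 nt, 2.41 ± 0.125 of 22 nt, 4.08 ± 0.191 of 23 nt and 21.997 ± 1.13 of 24 nt (SD, n = 3 each). In *zmp-2* of batch A these levels were 9.15%, 8.89%, 8.62% and 7.84% of WT, and in *ZMP-YFP zmp-2* they were 8.47%, 10.9%, 7.51% and 7.12%. In batch B *zmp-2* was at 5.22%, 5.30%, 4.60% and 4.86% of WT, and *zmp-2 shh1-1* was at 13.8%, 16.1%, 8.15% and 13.2%. The share of 24-nt reads among 21- to 24-nt reads was accordingly 72.9% ± 0.183 for WT, 70.5% ± 0.836 for *zmp-2* and 68.7% ± 0.720 for *ZMP-YFP zmp-2* of batch A (SD, n = 3 each). Batch B gave 71.9% ± 0.144 for WT, 71.7% ± 1.94 for *zmp-2* and 74.6% ± 1.82 for *zmp-2 shh1-1*. In *nrpd1-3* it was 36.8% ± 8.64 (SD, n = 2), resting on 195 reads of all sizes. The few reads left in *zmp-2* thus had nearly the sizes of those in WT. Of 65 members with at least 1 RPM of 23-nt reads in both WT groups, 55 met the limit of 0.25 in *zmp-2* of both batches and in *ZMP-YFP zmp-2* with their 23-nt reads, as did 31 of 39 for 22 nt and 25 of 28 for 21 nt. These counts were not made over other windows, so they are not read as a trait of the members. At the other lost windows, *zmp-2* of batch A was at 14.7%, 13.4%, 16.9% and 15.3% of WT for 21, 22, 23 and 24 nt.

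**Figure D5:**
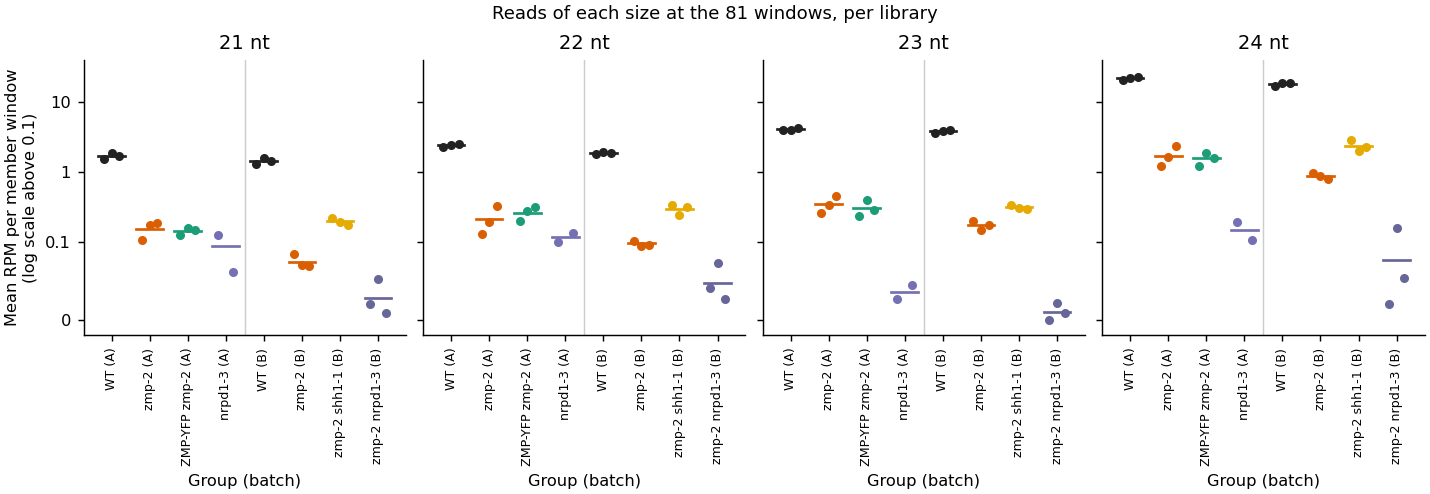
Mean RPM per member window (y axis, linear up to 0.1 and log above) of reads of 21, 22, 23 and 24 nt (panels) in the 8 groups (x axis, batch A left of the gray line). Points are libraries and bars are group means over the 81 windows. WT is far above *zmp-2* and *ZMP-YFP zmp-2* in all 4 panels, and *zmp-2 nrpd1-3* is the lowest group in each. *nrpd1-3* is next lowest at 23 and 24 nt. At 21 and 22 nt it is above *zmp-2* of batch B, at 0.0941 and 0.117 RPM against 0.0745 and 0.0983. These *nrpd1-3* means rest on 49 and 54 reads, and most of the 21-nt mean comes from the window at the microRNA gene *MIR157a* described below. The order of these groups, which lie in different batches, is not read as a trait of the members.

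With RPMR in place of RPM the mutant groups lay further below WT, most of all those without Pol IV and *zmp-2 shh1-1*. By RPMR the 24-nt level of the members was 6.36% of WT in *zmp-2* and 5.70% in *ZMP-YFP zmp-2* of batch A, 4.13% in *zmp-2* of batch B and 5.49% in *zmp-2 shh1-1*, the last against 13.2% by RPM. *nrpd1-3* was at 0.110% by RPMR against 0.673% by RPM, and *zmp-2 nrpd1-3* at 0.00951% against 0.424%. With 23-nt reads the order of *zmp-2* and *zmp-2 shh1-1* in batch B turned, from 4.60% and 8.15% by RPM to 3.89% and 3.395% by RPMR.

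Window by window, *zmp-2 shh1-1* was compared with *zmp-2 nrpd1-3*, neither of which the rule used. With 24-nt reads, 56159 of 57027 windows tested across the genome were higher in *zmp-2 shh1-1* (98.5%) and 41 were lower, by edgeR's quasi-likelihood test with 45S rRNA reads as library size, calling windows with a fold of at least 2 and a false discovery rate (FDR, after Benjamini and Hochberg) up to 0.05. Only 29 of the 81 members reached the 10 reads over the 6 libraries needed for the test. All 29 were higher in *zmp-2 shh1-1*, a share near the background, with FDRs from 3.37e-31 upstream of *EMB2816* to 1.13e-05. Since *zmp-2 nrpd1-3* held nearly no reads, they could pass the minimum only through the higher group. The filter thus favored this outcome, and nothing is read from the calls at the members, here or at the other sizes. With 23-nt reads 8 of 8 members tested were higher (90.3% of windows), with 22-nt reads 9 of 9 (91.8%) and with 21-nt reads 5 of 5 (85.5%). The median log2 fold change over all windows tested for 24-nt reads was 7.34 with this scaling and 4.78 when the total of 21- to 24-nt reads was the library size. The libraries of *zmp-2 nrpd1-3* held 6.04 to 7.72 M 45S rRNA reads and those of *zmp-2 shh1-1* 0.979 to 1.53 M. With the total as library size 27230 windows were higher and 1278 lower for 24 nt, 4364 and 1243 for 23 nt, 5986 and 1593 for 22 nt and 3072 and 2259 for 21 nt, and fewer members were called: 14 of 29 were higher for 24 nt, 4 of 8 for 23 nt, 2 of 9 for 22 nt with 1 lower, and 3 of 5 for 21 nt with 1 lower.

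No member lay at a gene mutated here. None of the 81 lay within 1000 bp of any of 17 genes of the pathway (*NRPD1*, *NRPE1*, *NRPD2*, *RDR2*, *DCL3*, *AGO4*, *SHH1*, *CLSY1* to *CLSY4*, *DRM2*, *DRD1*, *DMS3*, *RDM1*, *HEN1* and *ZMP*), and the smallest distance was 18.7 kb. Other windows near these genes were not counted, so the absence is not read as a trait of the members. The nearest to *ZMP* (chr5:25493707-25497764) was chr5:24100701-24100800, 1393 kb away and 108 bp upstream of the subtilase gene *SBT5.4*. It had 7.35, 7.21 and 6.82 RPM in WT of batch A, 0, 0.226 and 0.404 RPM in *zmp-2* and no read in *ZMP-YFP zmp-2*. The next were chr5:17989401-17989500 and chr5:17607701-17607800, 7504 and 7886 kb away. The first of these had 25.1, 23.7 and 30.2 RPM in WT of batch A, 7.44, 9.25 and 2.12 RPM in *zmp-2* and 2.20, 8.56 and 1.22 RPM in *ZMP-YFP zmp-2*, so that *zmp-2* kept 23.8% there, against 3.67% in batch B. The member nearest to *NRPD1* was chr1:24082701-24082800, 720.1 kb away in the coding sequence of *ILA*, a HEAT-repeat protein of plant immunity, where the annotation also places AT1G64795. It had 9.43, 6.18 and 8.27 RPM in WT of batch A, 10.9, 6.38 and 11.6 RPM in WT of batch B and no read in any library of *zmp-2*, *ZMP-YFP zmp-2* or either double mutant. The nearest to *SHH1* was chr1:3933001-3933100, 1305 kb away, which was also the member closest to the limit in *zmp-2* of batch A, at 24.6% of WT.

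Some members adjoined genes of known function, named here after their values were seen. The window chr1:6594001-6594100 lay 783 bp upstream of *DMS11* (*MORC6*), an ATPase needed for silencing at RdDM targets, and had 56.1, 39.2 and 49.6 RPM in WT of batch A, 0.438, 0.451 and 1.11 RPM for *zmp-2* and no read in *ZMP-YFP zmp-2*. In batch B it had 36.3, 52.3 and 43.3 RPM for WT, 0.272, 0 and 0 RPM for *zmp-2* and 0.945, 0 and 0 RPM for *zmp-2 shh1-1*. The window chr4:566801-566900 ended 17 bp upstream of *MPK4*, a mitogen-activated protein kinase of immune signaling, with 28.0, 21.02 and 25.2 RPM in WT of batch A, 0.328, 0 and 1.72 RPM in *zmp-2* and 0, 0.214 and 0.244 RPM in *ZMP-YFP zmp-2*. In the coding sequence of *AGL12*, a MADS-box transcription factor, chr1:26953101-26953200 had 5.91, 8.45 and 5.58 RPM in WT of batch A, 3.17, 0 and 0.808 RPM in *zmp-2* and no read in *ZMP-YFP zmp-2*. The window chr1:24913201-24913300 overlapped the microRNA gene *MIR157a*. Its 24-nt reads averaged 6.84 RPM in WT and 0.538 RPM in *zmp-2* of batch A, and its 21-nt reads 6.23 RPM for WT, 2.99 for *zmp-2*, 1.04 for *ZMP-YFP zmp-2* and 5.01 for *nrpd1-3*. No 24-nt read was found there in *nrpd1-3*. Only 56.0% of its 24-mers are unique, so that its reads may belong in part to other *MIR157* copies. Transcripts of these genes were not analysed here.

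The members closest to a limit show how the edge of the set lies. The lowest WT level inside was 4.15 RPM in batch A at chr2:18676801-18676900 and the highest outside, among windows failing on that alone, was 3.78 RPM at chr1:24082301-24082400. For WT of batch B the values were 4.16 RPM at chr2:15511801-15511900 and 3.59 RPM at chr2:8333501-8333600. For *zmp-2* of batch A they were 24.6% and 58.7% of WT, for *zmp-2* of batch B 20.5% and 27.5%, and for *ZMP-YFP zmp-2* 24.6% at chr2:1499901-1500000 and 27.05% at chr3:19561201-19561300.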

How the data were processed

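Small RNA libraries were made by the authors from total RNA of inflorescences. Per the study's methods, reads were trimmed, those from structural RNAs (rRNA, tRNA, snoRNA) were set aside with Bowtie (version 1.1.0 in the submitters' processing notes), and the rest were mapped to TAIR10 by ShortStack without mismatches, with reads of several possible origins placed by the density of unique reads nearby. Reads were assigned to 100-bp windows by their 5′ ends. What the authors deposited are whole-number counts per window and size (21, 22, 23 and 24 nt). The deposited RPM values multiply each count by 1 library factor and are relative to mapped reads of all lengths, and the deposited RPMR score is the count per M 45S rRNA reads (M, mega). Windows not listed in a file were taken as 0.

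Members were found from group means of the 24-nt RPM. The members and gene lists were chosen with earlier results of these data known. Clusters and windows were named by rule: the 8 clusters with the most windows, the 5 windows with the highest WT level of batch A, those nearest the mutated genes, and those at the limits. The counts of *zmp-2 shh1-1* and *zmp-2 nrpd1-3* were compared with edgeR (version 4.0.16, R version 4.3.3) and, as an alternative, DESeq2 (version 1.42.0), after tests on simulated counts. Gene models and sequences came from RefSeq TAIR10.1, and copies from BLAST (version 2.17.0). The pericentromere of a chromosome was the run of 100-kb bins around the lowest coding coverage, smoothed over 11 bins, that stayed below 0.5 of the chromosome's median bin. A 24-mer was unique when it occurred 1 time in the genome. Alternatives were other limits, units, joining distances, scalings and left-out libraries.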

Additional observations from a re-analysis of the deposited data

How the results depend on the processing

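The number of members followed the limits of the rule. It was 182 with a ratio limit of 0.5, 51 with 0.1, 123 with a WT minimum of 2 RPM, 46 with 8 RPM and 53 when every library had to meet the ratio, and leaving out 1 library gave 77 to 84. RPMR in place of RPM gave 85 members, 77 of them shared, and counts gave 72, 69 of them shared.

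Counts of windows higher in *zmp-2 shh1-1* than in *zmp-2 nrpd1-3* followed the scaling and the count filter. With 24-nt reads there were 27230 by total reads, 24717 by TMM, 16591 by DESeq2 with its own size factors and 141238 with no count filter. With 23-nt reads there were 4364 by total reads, 4669 by DESeq2 with its own size factors and 25334 with no filter, with 22-nt reads 5986, 5646 and 30261, and with 21-nt reads 3072, 3401 and 19484. Leaving out 1 library gave 36837 to 56004 for 24 nt, 5559 to 8723 for 23 nt, 7932 to 11861 for 22 nt and 5254 to 7657 for 21 nt, with the lowest values without *zmp-2 shh1-1* replicate 1, where fewer windows reached the minimum. For 23 nt, the count without *zmp-2 shh1-1* replicate 2 was 5816. Over 17 named windows and all alternatives, 169 values kept their call, 19 lost it and 3 turned direction. The last were all chr3:11120501-11120600, at log2 fold changes of -0.29 by total reads, -0.41 by TMM and -0.48 by DESeq2 size factors, against 4.45 as reported. DESeq2 gave no adjusted p for 7 values.

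Same-numbered libraries of the double mutants correlated at 0.001, 0.007 and 0.005 in their deviations, so the numbers did not pair them, and a fit with the replicate block gave 56070 windows for 24 nt. Depth limits *zmp-2 nrpd1-3* most, where 1 read is worth 0.722 to 0.849 RPM. The RPMR values of *zmp-2 shh1-1* were added after seeing the data.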

Other observations

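Some windows outside the set differed between replicates of 1 group, and were picked out after their values were seen. Upstream of AT4G18650, chr4:10266501-10266600 had 33.9, 0.749 and 0.244 RPM of 24 nt in *ZMP-YFP zmp-2*, against 56.1, 77.9 and 55.0 RPM in WT and 32.4, 38.6 and 28.0 RPM in *zmp-2* of batch A. Both windows on either side of it, chr4:10266401-10266500 and chr4:10266601-10266700, had the same order, with 9.98 and 15.4 RPM in replicate 1 of the transgenic line and no more than 0.244 RPM in replicates 2 and 3. At chr1:4685701-4685800 no read was found in *zmp-2* or *ZMP-YFP zmp-2* of batch A, and *zmp-2* of batch B had 0, 39.9 and 28.6 RPM beside 16.9, 25.03 and 23.3 RPM in WT. Only 19% of the 24-mers of that window are unique. In the UTR of AT5G23990, chr5:8107801-8107900 had 13.6, 9.89 and 14.9 RPM in WT, 4.16, 12.0 and 15.9 RPM in *zmp-2* and 0, 0.428 and 0 RPM in *ZMP-YFP zmp-2* of batch A. In batch B it was low in *zmp-2*, with 1.91, 2.26 and 1.73 RPM against 8.27, 8.83 and 9.02 RPM in WT, or 22.6% of WT. In all, 22 windows at the WT minimum were at or below 0.25 of WT in *ZMP-YFP zmp-2* and above it in *zmp-2* of both batches. Neither chr1:4685701-4685800 nor chr5:8107801-8107900 was among them, since each was above it in *zmp-2* of 1 batch only.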
